A study of Mus musculus with 8 samples.

Results

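The integrin genes of thymocytes, Itgb7, Itgae, Itga4, Itgb1, Itgal, Itgb2, Itga6, Itgav, Itgb3 and Itga5, were followed on one-colour Affymetrix mouse arrays of double-positive (DP) thymocytes, the CD4+CD8+ stage of T-cell development. Members were chosen by gene symbol. They are the 10 genes, of 18193 with a single-symbol probe set on the array, and all 30 of their probe sets, of 45037 that are not controls. The series asked how loss of the transcription factor c-Myb alters these cells before positive selection. Arrays titled Control (genotype field c-Myb sufficient) came from 4 mice and arrays titled Mutant (c-Myb deficient) from another 4, with 1 array per mouse. All 8 mice lacked Tcra, the T-cell receptor alpha chain gene, carried Cd4-Cre, a recombinase driven by Cd4 regulatory sequence, and were 4 to 5 weeks old. Cells were enriched on magnetic columns by an antibody against CD4, which does not by itself remove other CD4+ cells. The source names give the Control-labelled arrays 2 floxed Myb alleles (Mybf/f) and the Mutant-labelled arrays 1 floxed and 1 wild-type allele (Mybf/w), the reverse of the titles and the genotype field. Myb, the targeted gene, was not called lower on the arrays titled Mutant on any of its 3 probe sets, and 1 was called higher. Probe set 1422734_a_at read 5158.2, 4548.2, 4183.2 and 4184.3 on Control replicates 1 to 4 and 5458.0, 6395.8, 5728.8 and 5525.2 on Mutant replicates 1 to 4. The groups did not overlap, and Myb was higher on the arrays titled Mutant by 0.36 ± 0.08 on the log2 scale used below (limma adjusted p = 0.0327). Probe set 1421317_x_at read 8326.5 to 10387.9 and 10511.9 to 11754.0, again without overlap, and the difference of 0.28 ± 0.08 was not called (limma adjusted p = 0.0845). On 1450194_a_at the groups overlapped, at 6456.6 to 8464.2 and 7020.7 to 7707.1 (0.04 ± 0.08, limma adjusted p = 0.816). Whether these probe sets lie in the deleted part of Myb is not stated in the sources used, so they may not check the deletion, but the called direction goes against the titles. Control and Mutant are therefore only the labels of the arrays, every difference is Mutant-labelled minus Control-labelled, and each direction would turn if the labels were exchanged.

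Integrins are adhesion receptors made of an alpha and a beta chain, and the pairing sets the ligand. The beta7 chain (Itgb7) pairs with alpha4 (Itga4) in the gut-homing receptor for MAdCAM-1 and with alphaE (Itgae, CD103) in a receptor for E-cadherin on epithelium. The beta1 chain (Itgb1) pairs with alpha4, alpha5 (Itga5) and alpha6 (Itga6) in receptors for VCAM-1 and fibronectin, for fibronectin and for laminin. The beta2 chain (Itgb2) pairs with alphaL (Itgal) in LFA-1, the leukocyte receptor for ICAM proteins, and alphav (Itgav) with beta3 (Itgb3) in a receptor for vitronectin and other matrix proteins. In the thymus these receptors hold thymocytes to stroma and matrix as they migrate and mature.

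The deposited value of a probe set is a linear signal in arbitrary units. A probe set was tested where at least 4 of its 8 signals exceeded a dim limit of 33.8, the median signal of the table. Differences are on the log2(signal + 16) scale with their standard error (SE), and adjusted p-values come from limma over all 22599 probe sets that passed, called at 0.05. This scale understates changes of dim genes. The marker genes of DP cells were bright, with Cd8a at 10710 ± 607 and 11070 ± 1049 and Cd4 at 3961 ± 744 and 3704 ± 245 (SD, n = 4 mice) on Control and Mutant-labelled arrays. Xist, transcribed from the inactive X chromosome, read 4358.5 on Control replicate 1 and 4128.7 to 5735.5 on the Mutant-labelled arrays, but 23.4 to 36.7 on the other 3 Control-labelled arrays. Apart from Control replicate 1, Xist level thus split the mice as the labels did. Differences by Xist level and by label cannot be fully told apart. The brightest 18S rRNA control read 7142.7 on Mutant replicate 4 and 676.1 to 1459.4 on the other arrays. Log2 signals of tested probe sets correlated across probe sets at 0.97 to 0.99 within groups and 0.94 to 0.98 between them.

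The integrin genes moved in opposite directions. Itgb7 rose about 5.78-fold on Mutant-labelled arrays, Itga6 fell to 0.459 of its Control level, and Itga4 and Itgb1 fell by smaller amounts. Itgal, Itgb2, Itgav, Itgae and Itga5 did not pass the test, and Itgb3 stayed under the dim limit throughout. Of the 30 probe sets, 17 passed the dim filter, and of these 1 was called higher and 4 lower. The 5 calls became 3 without Control replicate 1, 3 or 4 or Mutant replicate 3. Over all tested probe sets 5.82% were called, 3.14% higher and 2.68% lower. Groups of arrays did not overlap on 10 of the 17 (14.3% of all tested), with the Mutant-labelled arrays higher on 2 (7.32%) and lower on 8 (7.00%). The median difference was -0.41 on the 17 probe sets and 0.01 on all 22599. Several of the 17 belong to the same gene, so they are not separate genes. Counted once per gene by its brightest probe set, 9 genes were tested, 1 rose and 2 fell, against 7.24% of 9941 genes called in either direction, and the median difference was 0.03.

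**Figure D1:**
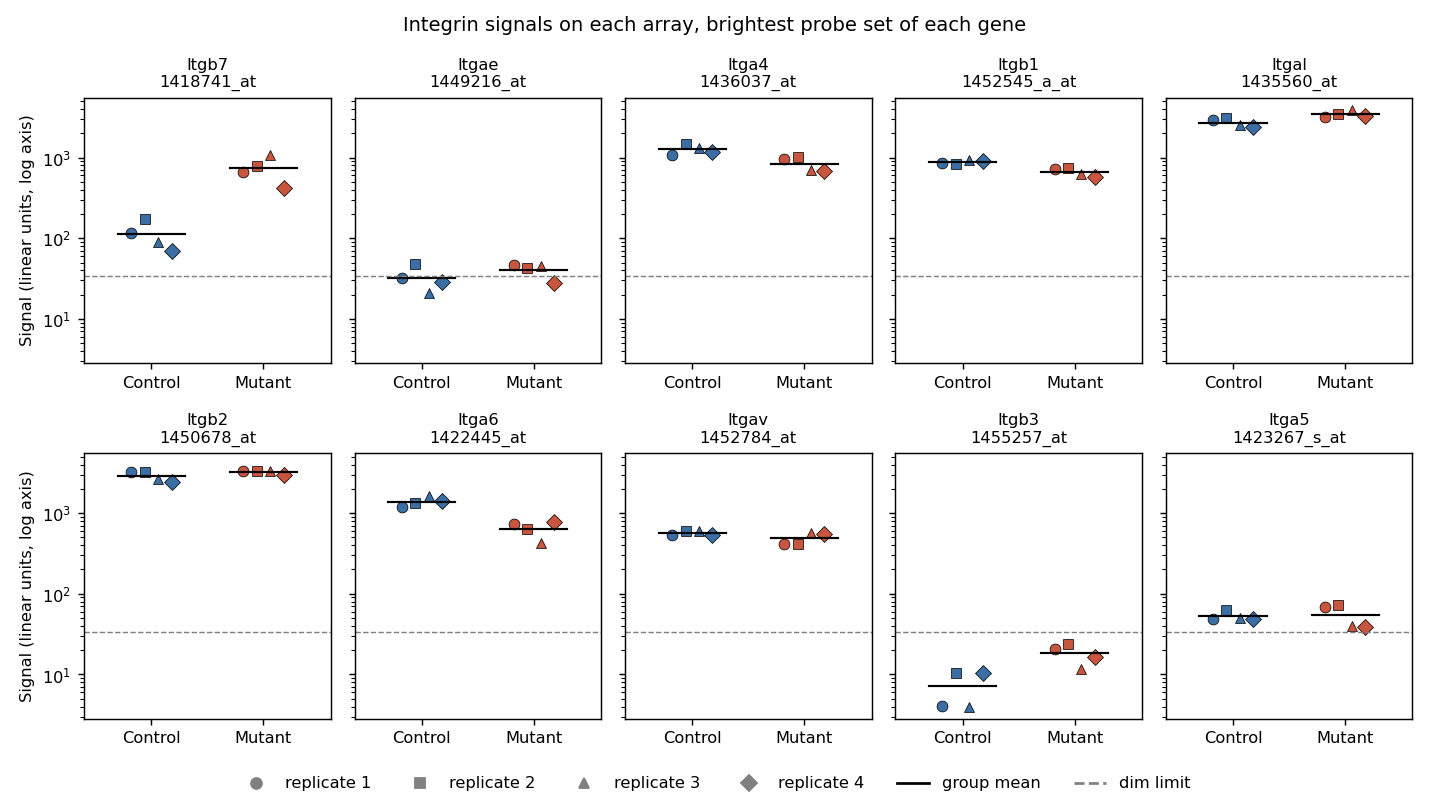
Signal of the brightest probe set of each of the 10 integrin genes (linear units on a log axis) on the 4 Control (blue) and 4 Mutant-labelled (red) arrays, with marker shapes for replicate numbers, black lines for group means and a dashed line at the dim limit of 33.8. The Itgb7 points of the Mutant-labelled arrays (414.9 to 1086) lie above all Control points (70.1 to 171.6), the Itga6 points lie below, and Itgae and Itga5 sit near the dim limit with Itgb3 under it.

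Upstream sequences of 3 of the 4 genes with a called probe set are shown because c-Myb, the factor the study targeted, binds a short core motif. RefSeq promoter windows (GRCm38.p6) were used for Itgb7, Itga4, Itgb1, Itgav and Itga5. Itga6, the gene with the largest fall, is not shown and not analysed here for this motif. The 250 bases before the annotated start are given 5′ to 3′ on the strand of the gene, in lower case, with each match to the Myb core AACNG, on either strand, in capitals.
Itgb7, chr15:102231936-102232185, minus strand: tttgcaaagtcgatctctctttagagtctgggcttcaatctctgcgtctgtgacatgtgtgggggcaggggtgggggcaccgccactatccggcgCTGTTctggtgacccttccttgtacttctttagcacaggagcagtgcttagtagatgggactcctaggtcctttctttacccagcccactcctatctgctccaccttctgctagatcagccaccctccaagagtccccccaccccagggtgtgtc
Itga4, chr2:79255176-79255425, plus strand: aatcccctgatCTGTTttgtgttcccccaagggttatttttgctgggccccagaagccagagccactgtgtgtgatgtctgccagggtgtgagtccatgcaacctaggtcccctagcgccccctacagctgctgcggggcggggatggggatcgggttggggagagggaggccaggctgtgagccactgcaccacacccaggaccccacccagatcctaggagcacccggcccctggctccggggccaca
Itgb1, chr8:128685404-128685653, plus strand: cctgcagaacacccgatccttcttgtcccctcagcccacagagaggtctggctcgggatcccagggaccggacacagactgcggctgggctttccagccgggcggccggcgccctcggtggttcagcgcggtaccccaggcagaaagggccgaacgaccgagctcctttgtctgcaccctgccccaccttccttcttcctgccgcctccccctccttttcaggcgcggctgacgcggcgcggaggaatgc
Itgb7, which rose, and Itga4, which fell, each held 1 match, and Itgb1 held 0. Of the 5 integrin windows 4 held a match, and of all 32851 RefSeq windows of this length 74.2% held at least 1, so a match does not set these genes apart. A match is a stretch of letters and not a measured site.

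Itgb7 showed the largest difference of the 10 genes. Its only probe set, 1418741_at, read 117.4, 171.6, 89.6 and 70.1 on Control replicates 1 to 4. On Mutant replicates 1 to 4 it read 654.0, 783.3, 1086 and 414.9. Every Mutant-labelled array was above every Control-labelled array. The means were 112 ± 44.1 and 735 ± 280 (SD, n = 4), a log2 difference of 2.53 ± 0.29 (SE; 95% interval 1.88 to 3.18; limma adjusted p = 0.0011). With each array left out in turn the difference stayed between 2.32 and 2.77, and it was called in 8 of 8 such fits (adjusted p 0.000704 to 0.0065). Without Mutant replicate 4, the array with the high 18S control, it was 2.77. With Xist level, high or low, as a covariate, the difference was 2.41 ± 0.49 and was no longer called (adjusted p = 0.134). In that fit 8 of 22599 probe sets (0.0354%) and 0 integrin probe sets were called by limma. At an unadjusted limma p under 0.05 there were 4 of the 17, beside 1794 of all 22599. In the same fit Control replicate 1 alone stood against the 4 Mutant-labelled arrays. Its Itgb7 signal, 117.4, lay within the range of the other Control-labelled arrays.

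The alpha partners of beta7 did not move with it. Itgae, which encodes the alpha chain that pairs with beta7 alone, was dim in both groups. Its tested probe set, 1449216_at, read 31.7, 47.4, 21.1 and 29.0 on Control and 46.3, 43.1, 45.1 and 27.9 on Mutant-labelled arrays. The groups overlapped, with 1 Control and 3 Mutant-labelled arrays above the dim limit. The difference was 0.24 ± 0.21 (95% interval -0.23 to 0.72, limma adjusted p = 0.579), so a rise as large as that of Itgb7 lies outside the interval on this scale, which compresses dim signals. The other Itgae probe set, 1447541_s_at, passed the dim limit on 3 arrays only and read 13.5 to 53.6 on Control and 19.1 to 85.8 on Mutant-labelled arrays.

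Itga4, which pairs with both beta7 and beta1, was lower on Mutant-labelled arrays. Its brightest probe set, 1436037_at, read 1089.2, 1489.0, 1309.2 and 1160.2 on Control-labelled arrays and 949.5, 1028.1, 691.1 and 672.8 on Mutant-labelled arrays. No Mutant value reached the lowest Control value, and Mutant replicates 3 and 4 were the lowest. The means were 1262 ± 177 and 835 ± 180 (SD, n = 4), a log2 difference of -0.60 ± 0.16 (95% interval -0.94 to -0.26, limma adjusted p = 0.048). The call was close to the threshold. Leaving out any 1 array other than Mutant replicate 2 ended it, with adjusted p-values from 0.0594 without Control replicate 1 to 0.138 without Control replicate 3 and differences between -0.67 and -0.51. A pseudocount of 1, no dim filter, no variance trend and array weights also ended it (adjusted p 0.0508 to 0.0863), as did the Xist class (0.769). The other 3 tested Itga4 probe sets differed by -0.70 (1456498_at), -0.67 (1450155_at) and -0.52 (1421194_at) and were not called, at adjusted p of 0.07, 0.0613 and 0.197. On 1456498_at, Control-labelled arrays read 419.6 to 521.1, and Mutant replicate 4 read 162.7 against 302.1 to 336.7 on the other Mutant-labelled arrays. The groups did not overlap on 1456498_at and 1450155_at and overlapped on 1421194_at. The remaining probe set, 1427615_at, was below the dim limit on all arrays.

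Itga6, the laminin receptor alpha chain, had the largest fall. On 1422445_at the Control-labelled arrays read 1199.6, 1322.9, 1615.2 and 1420.3 and the Mutant-labelled arrays 726.8, 630.9, 426.0 and 778.7. The second probe set, 1422444_at, read 1231.7, 1393.0, 1546.3 and 1401.5 on Control-labelled arrays and 787.0, 655.5, 351.6 and 689.2 on Mutant-labelled arrays. Both probe sets separated the groups completely, and on both Mutant replicate 3 was lowest and Control replicate 3 highest. On 1422445_at the mean fell from 1390 ± 176 to 641 ± 156 (SD, n = 4; log2 -1.12 ± 0.17, 95% interval -1.51 to -0.74, limma adjusted p = 0.00428). On 1422444_at it was -1.20 ± 0.21 (adjusted p = 0.00835). Both calls held in 8 of 8 fits that left out 1 array, with differences of -1.23 to -0.95 and -1.33 to -0.96. With the Xist class in the model the values were -0.92 ± 0.28 (adjusted p = 0.333) and -1.03 ± 0.34 (adjusted p = 0.413). Control replicate 1, the Xist-high Control, had the lowest Control signal on both probe sets, and it was still above every Mutant-labelled array.

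**Figure D2:**
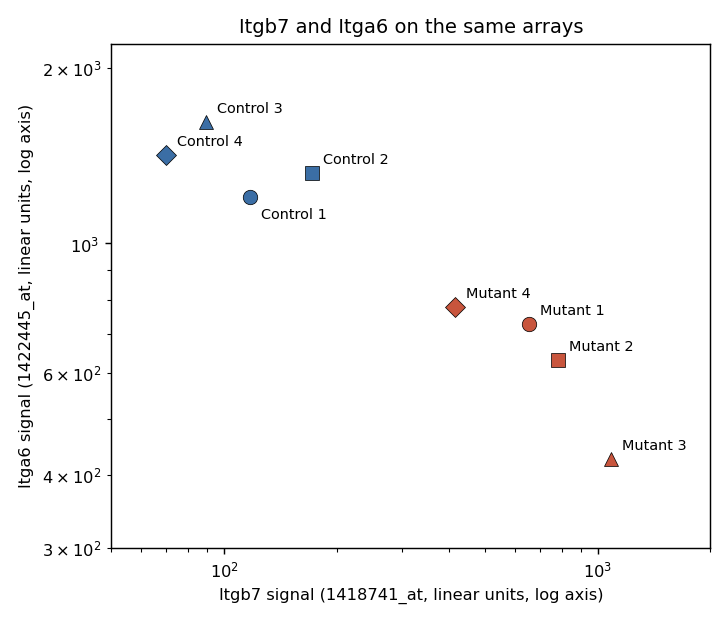
Signal of Itgb7 (x axis, 1418741_at) against Itga6 (y axis, 1422445_at) on each of the 8 arrays, linear units on log axes, with Control in blue and Mutant in red. The groups separate on both axes, and the Mutant-labelled array with the highest Itgb7 signal (1086, replicate 3) has the lowest Itga6 signal (426.0), while the one with the lowest Itgb7 signal (414.9, replicate 4) has the highest Itga6 signal (778.7).

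The 4 Mutant-labelled arrays thus took opposite orders in Itgb7 and Itga6. From replicate 4 through 1 and 2 to 3, Itgb7 read 414.9, 654.0, 783.3 and 1086 while Itga6 on 1422445_at read 778.7, 726.8, 630.9 and 426.0. On the second Itga6 probe set the order differed in 1 place, since replicate 1 (787.0) was above replicate 4 (689.2). Among the Control-labelled arrays, replicates 1 and 2 had more Itgb7 signal (117.4 and 171.6) than replicates 3 and 4 (89.6 and 70.1) and less Itga6 signal on both probe sets. Within these pairs the order was not inverse on 1422445_at, since replicate 2 was above replicate 1 and replicate 3 above replicate 4 in both genes. The order was not particular to these genes. From Mutant replicate 4 through 1 and 2 to 3, the uncalled Arhgef6 1442292_at read 96.1, 185.2, 212.0 and 323.2. The uncalled Git2 1445037_at read 216.5, 313.2, 403.4 and 492.3. Both also read higher on Control replicates 1 and 2 than on 3 and 4. How many probe sets share this order was not counted. With 4 arrays per group no correlation was computed.

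Itgb1, the shared partner of alpha4, alpha5 and alpha6, fell on 1 of its bright probe sets, and the other was just short of the threshold. On 1426918_at Control-labelled arrays read 768.2, 659.8, 923.1 and 956.7 and Mutant-labelled arrays 595.9, 593.8, 470.6 and 473.1. The groups did not overlap, with the lowest Control value in replicate 2 and the highest Mutant value in replicate 1. This probe set fell by 0.61 on the log2 scale (SE 0.14, 95% interval -0.92 to -0.30, limma adjusted p = 0.0301). The call was kept in 2 of 8 fits that left out 1 array, without Control replicate 2 or Mutant replicate 1, and adjusted p reached 0.107 without Control replicate 3. The brightest probe set, 1452545_a_at, read 846.3, 824.0, 940.0 and 910.3 on Control and 727.8, 737.1, 618.8 and 567.3 on Mutant-labelled arrays. Here too the groups did not overlap, and the difference was -0.41 ± 0.11 (limma adjusted p = 0.054). A fit with 1 probe set per gene, which adjusts over 9941 genes, gave it an adjusted p of 0.0327. Probe set 1427771_x_at, whose suffix marks probes that can match other transcripts, read 30.4 to 62.1 over all arrays and differed by -0.04 ± 0.20 (adjusted p = 0.929). The last 3 Itgb1 probe sets were below the dim limit on all arrays.

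Both chains of LFA-1 were bright, and neither passed the test. Itgal on 1435560_at read 2890.6, 3055.5, 2567.4 and 2359.2 on Control-labelled arrays and 3226.0, 3479.7, 3886.6 and 3293.9 on Mutant-labelled arrays. All Mutant-labelled arrays were above all Control-labelled arrays, with a difference of 0.35 ± 0.10 (95% interval 0.14 to 0.57, limma adjusted p = 0.0579). It was past the threshold with 1 probe set per gene (adjusted p = 0.0403), with array weights (0.0164) and without Control replicate 2 (0.0380). The other Itgal probe set, 1425367_at, read 592.6 to 628.8 on Control and 477.2 to 710.1 on Mutant-labelled arrays and differed by 0.04 ± 0.13 (adjusted p = 0.894), so the probe sets of Itgal disagree in size. Itgb2 on 1450678_at read 3239.0, 3229.3, 2641.3 and 2443.8 on Control and 3327.3, 3348.2, 3321.2 and 3007.2 on Mutant-labelled arrays. The groups overlapped, and the difference was 0.18 ± 0.10 (95% interval -0.04 to 0.40, adjusted p = 0.347).

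The receptors for vitronectin and fibronectin were at moderate or low signal. Itgav on 1452784_at read 530.0, 601.7, 599.8 and 539.4 on Control and 415.5, 416.5, 562.5 and 546.1 on Mutant-labelled arrays. Mutant replicates 1 and 2 were below all Control-labelled arrays and Mutant replicates 3 and 4 within their range, for a difference of -0.23 ± 0.13 (limma adjusted p = 0.338). The dimmer 1421198_at read 74.8 to 109.7 and 43.6 to 74.6, without overlap, and differed by -0.50 ± 0.19 (adjusted p = 0.155). Its other 3 probe sets did not pass the filter. Itga5 passed the filter on 1423267_s_at only, at 48.2 to 62.9 on Control and 38.8 to 73.2 on Mutant-labelled arrays, a difference of 0.03 ± 0.21 (adjusted p = 0.959) whose sign changed under quantile normalization. Both Itgb3 probe sets were below the dim limit on all 8 arrays, at 3.4 to 26.3 over both groups. On 1455257_at all Mutant-labelled arrays (11.8 to 23.8) read above all Control-labelled arrays (4.0 to 10.4), in a range where no level or fold can be given. Bulk RNA cannot tell apart fewer cells of a type and less RNA per cell for any of these genes.

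**Figure D3:**
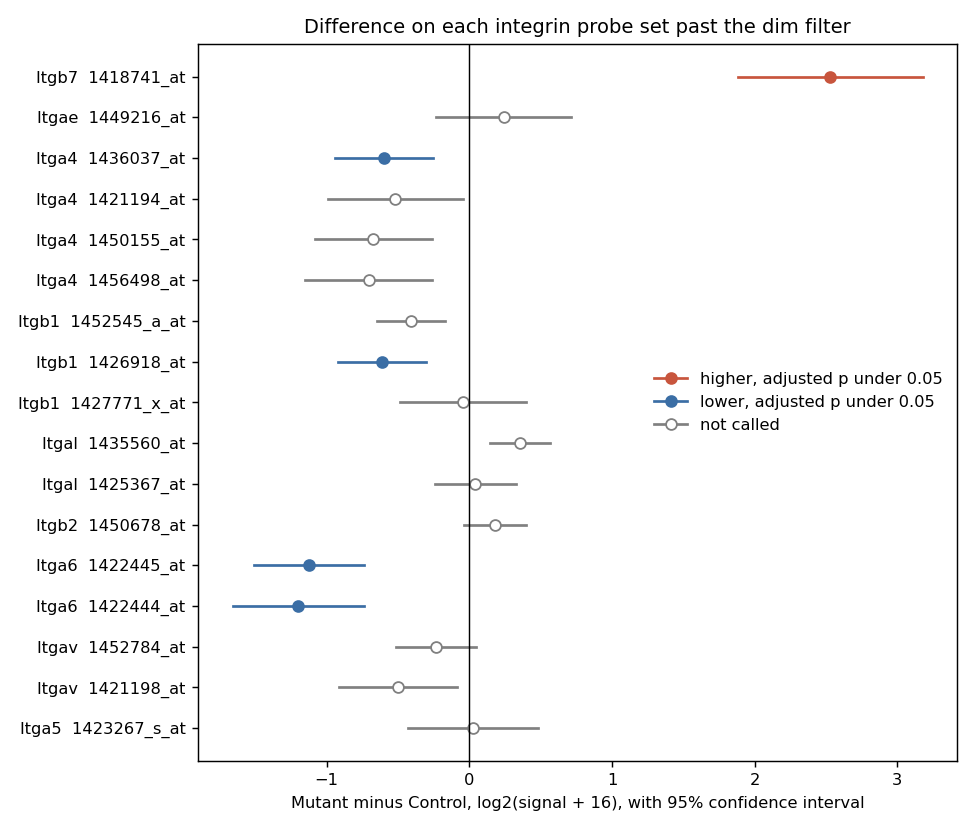
Difference between Mutant and Control-labelled arrays (x axis, log2(signal + 16) units) for each of the 17 integrin probe sets past the dim filter, as points with 95% confidence intervals. Filled red and blue points passed the adjusted p threshold of 0.05, 1 higher (Itgb7, 2.53) and 4 lower (both Itga6 probe sets and 1 each of Itga4 and Itgb1), and open points did not.

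Other genes of the integrin system, counted by the brightest probe set of each gene, are given beside 7.24% of 9941 genes called (4.16% higher, 3.08% lower) and an overall median difference of 0.02. Counts at an unadjusted p under 0.05 are to be read beside 2492 of 9941 genes in the limma fit with 1 probe set per gene. Among 18 other integrin subunits 16 were on the array with a single symbol, 5 could be tested and 0 were called by limma (1 had an unadjusted p under 0.05). The brightest, Itgb5, read 34.7 to 74.6 on Control and 66.7 to 87.8 on Mutant-labelled arrays (0.49 ± 0.20, adjusted p = 0.182). Of the 31 integrin ligand genes 6 could be tested and 0 were called by limma (3 had an unadjusted p under 0.05). The brightest was Icam2, a ligand of LFA-1, at 2279 ± 403 and 1736 ± 166 (-0.38 ± 0.13, adjusted p = 0.125). The ligand of alpha4 beta7, Madcam1, was below the dim limit on all arrays.

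Of 34 genes listed for the control of integrin activation 30 were tested, 2 rose and 0 fell, a share of 6.67% near that of all genes. The list mixes activators with inhibitors such as Sharpin and Sipa1. The median difference was 0.01, and 8 of the 30 had an unadjusted p under 0.05. That is near the share of all genes, 2492 of 9941 in the limma fit with 1 probe set per gene. The talin gene Tln1 (-0.02), the kindlin gene Fermt3 (0.17) and the Rap1 genes Rap1a (-0.01) and Rap1b (-0.09) did not pass. Arap2, which encodes a GTPase-activating protein for Arf6, rose from 841 ± 96.7 to 1501 ± 137 (0.83 ± 0.11, limma adjusted p = 0.00182), while its other 2 tested probe sets differed by 0.64 and 0.22 and were not called. Stk4, the Mst1 kinase that acts with RAPL on LFA-1, read 5118.4 to 6072.5 on Control and 6427.1 to 7230.2 on Mutant-labelled arrays, a rise of 0.32 ± 0.07 (adjusted p = 0.0215). Its other 2 probe sets differed by 0.38 and 0.41 and were not called. Dock2, which activates Rac in migrating lymphocytes, read 1909.4 to 3252.9 on Control-labelled arrays and 3268.0 to 3957.8 on Mutant-labelled arrays. The groups did not overlap, and the difference of 0.59 ± 0.16 was not called (limma adjusted p = 0.0613). Its other 2 probe sets differed by 0.86 and 1.0 and were not called either.

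Of 41 adhesion signalling genes 31 were tested, 1 rose and 1 fell, with a median of 0.04. Evl, an Ena/VASP protein that acts on actin at adhesion sites, read 216.5, 221.7, 322.5 and 252.9 on Control and 946.3, 1195.6, 1482.1 and 670.3 on Mutant-labelled arrays. That was a rise of 1.97 ± 0.22 (limma adjusted p = 0.000865), and its other 2 probe sets differed by 1.90 and 2.13. As with Itgb7, Mutant replicate 3 was highest and Mutant replicate 4 lowest. Tes, a LIM-domain protein of focal adhesions, fell from 173 ± 34.1 to 96.5 ± 11.8 (log2 -0.74 ± 0.17, adjusted p = 0.0271), and its other probe set differed by -0.69 and was not called.

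Membrane proteins that associate with integrins had 15 tested of 19 listed, with 4 higher, 0 lower and a median of 0.18 by brightest probe set. On a dimmer probe set Cd151 was called lower (1424093_x_at, -0.68 ± 0.17, limma adjusted p = 0.0375). Cd47 was called higher on 1419554_at (0.36 ± 0.08, limma adjusted p = 0.0245). The other tested probe sets of Cd151 (-0.55 to -0.23) and of Cd47 (0.03 to 0.34) were not called. Sdc4, a heparan sulfate proteoglycan of focal adhesions, read 80.0, 58.1, 30.5 and 29.8 on Control and 323.4, 500.5, 793.5 and 527.9 on Mutant-labelled arrays (3.08 ± 0.30, limma adjusted p = 0.00042). Its other tested probe set, 1417654_at, differed less, by 1.94 ± 0.37 (limma adjusted p = 0.0127). The tetraspanin Cd53 went from 359 ± 257 to 2304 ± 582 (2.88 ± 0.43, limma adjusted p = 0.00385). A dimmer Cd53 probe set, 1459744_at, differed by 1.38 ± 0.24 (limma adjusted p = 0.00847). The tetraspanin Tspan32 rose by 1.0 on 1418398_a_at (limma adjusted p = 0.0200), but its other tested probe set, 1431289_at, differed by 0.17 ± 0.19 (limma adjusted p = 0.669). Sdc1, under the dim limit on all 4 Control-labelled arrays (6.1 to 21.2), was at least 2.83-fold higher on Mutant-labelled arrays (101.0 to 153.4). Of 25 TGF-beta and Runx genes, included because TGF-beta induces Itgae in T cells, 18 were tested, 2 rose and 2 fell, with a median of -0.16. Smad3, the TGF-beta signal transducer, rose from 613.5 ± 40.7 to 1033 ± 139 (0.73 ± 0.11, adjusted p = 0.00428), although its other 2 tested probe sets differed by 0.06 and 0.42 and were not called. The receptor gene Tgfbr2 rose by 0.45, with 0.29 on its other tested probe set, which was not called. Tgif1, a repressor of Smad-dependent transcription, fell by 0.74, and Nrros, a carrier of latent TGF-beta, fell by 0.58. Runx3, an activator of Itgae in CD8 T cells, read 84.4 and 135 on average, a difference of 0.56 that did not pass (adjusted p = 0.197).

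**Figure D4:**
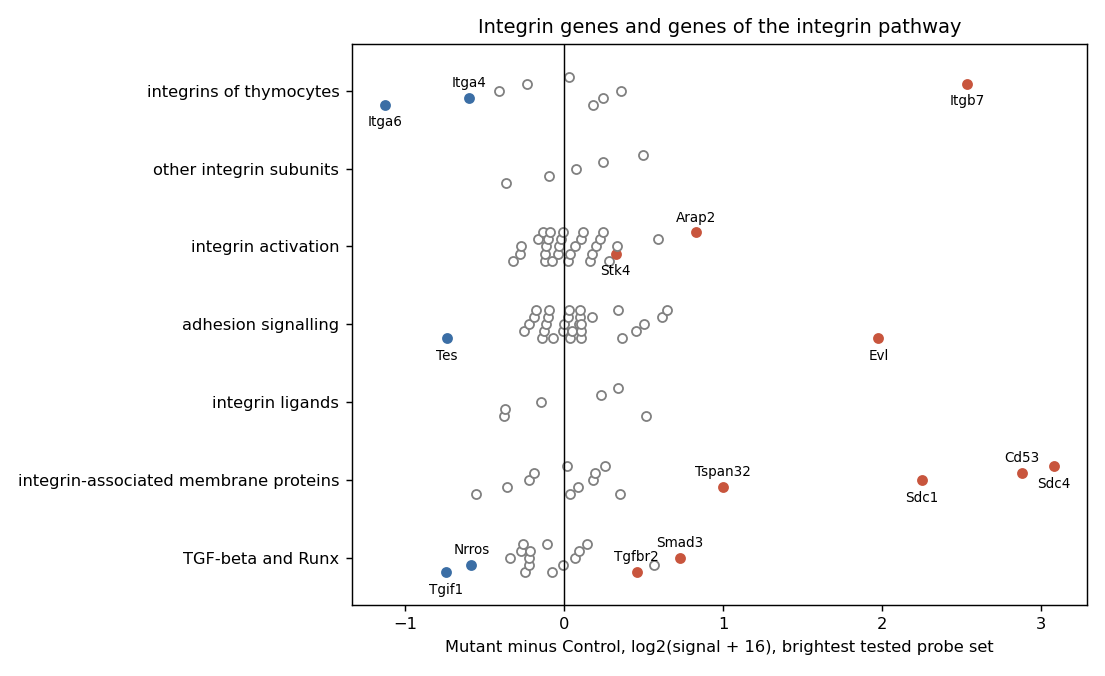
Difference between Mutant and Control-labelled arrays (x axis, log2(signal + 16) units) for each tested gene of the 10 integrins and of 6 lists of related genes, by brightest probe set. Filled red and blue points are genes called higher or lower and are named, open points are genes not called, and vertical offsets within a list carry no meaning.

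A set of 3 genes was closest to Itgb7 in profile over the 8 arrays, by root mean square distance on the log2 scale after each gene was centred on its Control mean. St6gal1, a sialyltransferase, lay at 0.27 (368 ± 149 to 1770 ± 516), Gpr183, an oxysterol receptor that guides lymphocyte migration, at 0.28 and Nr1d1, a circadian repressor, at 0.30. Gpr183 was below the dim limit on all Control-labelled arrays (17.0 to 25.0) and at least 4.24-fold higher on Mutant-labelled arrays. For Itgae, whose signals stayed near the dim limit, the nearest were Atm (0.09), Pccb (0.09) and Cplane1 (0.10), none of which was called. Distances describe these arrays and carry no test.

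Some markers of other thymocyte stages also differed between the groups, beside 7.24% of 9941 genes called in either direction. At an unadjusted p under 0.05 there were 2492 of 9941 genes in the limma fit with 1 probe set per gene. Of 10 single-positive thymocyte markers 8 were tested, 6 rose and 1 fell, and their summed signal was 3926 to 4480 on Control and 5704 to 6152 on Mutant-labelled arrays, with 0 of the 9 annotated markers below the dim limit on all arrays. Of 9 double-negative markers 3 rose, 1 fell and 5 were not called, with a median difference of 0.65 and overlapping sums of 3356 to 4152 and 4135 to 7136. A dimmer Il2ra probe set, 1420691_at, was called higher (2.66 ± 0.36, limma adjusted p = 0.00221). Cd44, among those not called, went against the median of its list, by -0.22 on its brightest probe set and by -0.44 and -0.65 on the others tested. Of 13 annotated DP markers 0 rose and 3 fell by brightest probe set (Rag2, Arpp21 and Cd1d1), with overlapping sums of 78480 to 84960 and 75510 to 79760. Themis was also called lower on a dimmer probe set, 1439719_at (-0.44 ± 0.10, limma adjusted p = 0.0289). Its probe sets 1442022_at (-0.43) and 1443192_at (0.28) were not called. The part of these shifts in the integrin differences was not tested. Platelet markers, relevant to Itgb3 and Itga6, had 2 of 9 annotated tested and 0 called by limma (0 at an unadjusted p under 0.05), at sums of 149 to 305 on Control and 161 to 225 on Mutant-labelled arrays. The platelet genes Ppbp, Gp9, Clec1b and Gp6 were below the dim limit on all arrays. Macrophage and dendritic cell markers had 10 of 15 tested and 0 called by limma (1 at an unadjusted p under 0.05), at sums of 600.1 to 1189 and 946 to 1313, with Cd14, Siglech and Flt3 below the limit on all arrays. Gamma-delta, NKT and NK markers had 3 of 12 tested and 1 called, Gzma, which rose by 0.75, with Ncr1 and Zbtb16 below the limit on all arrays and sums of 2096 to 2715 and 3245 to 4495. B cell markers had 2 of 8 tested and 0 called by limma (1 at an unadjusted p under 0.05), with Cd79a and Ebf1 below the limit on all arrays. Their sums, 7188 to 7408 and 7752 to 8636, rest largely on 1 gene, Ighm. Even a dimmer Ighm probe set, 1427329_a_at, read 3470.8 to 3921.2 on Control and 4157.0 to 6135.8 on Mutant-labelled arrays. Thymic stroma and endothelium markers had 4 of 13 tested and 1 called (Pdgfrb, higher), with sums of 881.5 to 950.6 and 679.9 to 939.6, and 7, Foxn1 and Psmb11 among them, were below the limit on all arrays. Granulocyte and erythroid markers had 3 of 9 tested and 1 called (Car2, higher), with sums of 292.7 to 527.4 and 1194 to 1553, and Mpo, Elane, Camp and Hba-a1 were below the limit on all arrays.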

How the data were processed

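Per the submitters' processing notes, GCOS (Affymetrix) produced the deposited table, whose values are linear intensities, 1 per probe set for each mouse. Its version and settings are not stated in these sources. Intensities ran from 0.1 to 18045, and the 2% trimmed mean was 250.0 on each array, so arrays had been scaled to a common level, which removes differences in total RNA per cell. Detection calls and scan batches were not used here.

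Groups came from the titles. From the intensities log2(signal + 16) was computed, 64 control probe sets were left out, and 22599 probe sets above the table median of 33.8 on at least 4 of 8 arrays were fitted with limma 3.58.1 in R 4.3.3 (lmFit, eBayes with a variance trend, two-sided, Benjamini-Hochberg). Fitting all probe sets, rather than 1 per gene, keeps every probe set of a gene in view and adjusts over more tests. Gene names are those of the platform annotation, updated through gene identifiers (34741 of 34945 single-symbol probe sets matched RefSeq); a gene's brightest probe set has the highest mean log2 signal. Named genes are all integrin probe sets, the up to 2 called genes of each related list with the largest difference (or the brightest where none was called), and the 3 nearest profiles to Itgb7 and Itgae. Others that are named, such as Dock2, Tspan32, Sdc1, Cd151, Cd47, Tgfbr2, Nrros and Runx3, were picked after their values were seen. So were the talin, kindlin and Rap1 genes. Members and lists were chosen with earlier results of these data known. Some listed genes have no single-symbol probe set and are not analysed here. On simulated data for Mutant against Control over 22599 probe sets, the fit recovered 2% of changes of 1.25-fold, 24% of 1.5-fold, 70% of 2-fold and 96% of 4-fold (50 each), with 5 false calls among 101. The simulated noise was normal and independent between probe sets, with fewer changed probe sets than were called in the data. It held no outlying array and no Xist difference, so these rates may not hold for the data. Alternatives changed the pseudocount, filter, normalization, variance model, array weights and probe set choice, added a replicate block or the Xist class (cut at a signal of 1000), or left out each array. The number of arrays limits the precision. The labels call the arrays biological replicates. No 2 arrays shared more than 271 of 45101 values. Analyses used Python 3.11.15, pandas 2.3.3 and matplotlib 3.10.9.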

Additional observations from a re-analysis of the deposited data

Results flagged for a closer look

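A single array stood apart from the remaining 3 of its group in 4 of 54 cases, where about 1 in 20 would arise by chance. In 3 of these it was Mutant replicate 4, the one with the high 18S rRNA control, and it was the lowest. Itgae (1449216_at) read 27.9 there against 43.1 to 46.3 on the other Mutant-labelled arrays, Itga4 (1456498_at) read 162.7 against 302.1 to 336.7, and Itgb2 (1450678_at) read 3007.2 against 3321.2 to 3348.2. Without that array Itgae differed by 0.36 (limma adjusted p = 0.363), Itga4 on this probe set by -0.48 (limma adjusted p = 0.036) and Itgb2 by 0.22 (limma adjusted p = 0.265). In the remaining case, Itga5 (1423267_s_at) read 62.9 on Control replicate 2 and 48.2 to 50.1 on the other Control-labelled arrays.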

How the results depend on the processing

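The count of integrin probe sets called, 5 of 17, was 3 without a variance trend, 0 with the Xist class in the model and 3 to 5 when 1 array was left out; it was 3 without Control replicates 1, 3 or 4 or Mutant replicate 3. Other settings gave 4 to 7, but not always of 17. The count was 4 of 30 (13.3%, beside 2.04% of all probe sets) with no dim filter. With a signal above 100 on at least 4 arrays it was 6 of 13 (46.2%, beside 7.6%). With 1 probe set per gene it was 5 of 9 (55.6%, beside 9.98%). Over all probe sets 1316 were called, 2631 with array weights, 8 with the Xist class and 566 (without Control replicate 3) to 1568 (without Mutant replicate 4) with 1 array left out. It was also under the main count by over 1.5 times without Control replicate 4 (874) or Mutant replicate 1 (809), 2 (631) or 3 (714). Itgb7 and both Itga6 probe sets were called in each setting that fitted them except the Xist class. Sign changes were limited to 3 uncalled probe sets near 0: Itgb1 1427771_x_at (-0.1984 to 0.052 over the fits that left out 1 array, above 0 at 0.0014, 0.052 and 0.0174 without Control replicates 3 and 4 and Mutant replicate 2), Itgal 1425367_at (-0.0143 to 0.1717, below 0 at -0.0111 and -0.0143 without Mutant replicates 1 and 3) and Itga5 1423267_s_at (-0.0072 with quantile normalization, -0.0931 to 0.1411 with 1 array left out, and below 0 at -0.0017, -0.0677 and -0.0931 without Control replicate 4 and Mutant replicates 1 and 2). With the replicate number as a block 4 integrin probe sets and 1081 in all were called, and Itgb1 1426918_at was not (adjusted p = 0.0710). Deviations of same-numbered arrays correlated at -0.15, 0.18, -0.37 and 0.33. Those of differently numbered arrays ran from -0.37 (Control replicate 4 with Mutant replicate 3) to 0.41 (Control replicate 2 with Mutant replicate 3). Such values cannot tell whether the numbers pair the mice, since pairing need not leave a deviation shared by most probe sets. Causes of these changes were not tested. Signals near the dim limit (Itgae, Itga5, Itgb3) limit what can be said of those genes.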
